A study of Mus musculus with 6 samples.

Results

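Transcripts of sugar breakdown and of the response to low oxygen were examined in germinal centre B cells of mouse spleen. The group held 37 genes, picked by known role with earlier results of these data in view, of the 23420 genes listed in each library. It fell into 16 glycolytic enzymes, 4 carriers of sugar or lactate, 4 regulators of flux, Hif1a itself, and 12 targets of hypoxia-inducible factor (HIF) outside glycolysis. The KO group had the genotype BASP1 fl/fl hCD20TamCre+/- and the WT group BASP1 +/+ hCD20TamCre+/-, with 3 libraries each. In both, a Cre recombinase that the human CD20 promoter drives in B cells was activated by 3 tamoxifen doses of 1 mg, given 5, 7 and 9 days after immunisation with NP-KLH, a hapten on a carrier protein. The cells were sorted on day 10. The WT mice therefore carried the same Cre and met the same drug, and CD20 is found on B cells in general, not on germinal centre cells alone. The sources used here give neither mouse age nor pooling, and do not say that each library was a mouse of its own, so the spread between libraries may be technical.

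Glycolysis splits glucose to pyruvate in the cytosol, and lactate dehydrogenase then reduces pyruvate to lactate, which leaves the cell through monocarboxylate carriers. HIF is a transcription factor whose alpha subunit is made and destroyed all the time: prolyl hydroxylases of the EGLN family mark it when oxygen is present, and the VHL ligase removes it. When oxygen is short, HIF binds the core motif A/GCGTG, the hypoxia response element, and raises many glycolytic genes together with genes for collagen modification, mitophagy and feedback on HIF itself. Germinal centres have been described as partly hypoxic, and selected B cells there as users of glucose as well as fatty acids. Because HIF is controlled at the protein level, the Hif1a transcript does not report its activity.

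Each library listed a log2 CPM value (reads scaled to a fixed library total, on a log2 scale) per gene, and the read depth behind it is unknown. Basp1 was at 9.65, 7.27 and 9.39 CPM in KO libraries 1 to 3, against 44.8, 59.5 and 46.0 CPM in WT libraries 1 to 3, so the KO group kept 0.175 of the WT level. The germinal centre B cell markers Bcl6, the master repressor of that state, and Fas were present in every library, Bcl6 at 199.7 to 219.6 CPM in KO and 208.9 to 229.8 CPM in WT libraries, and Fas at 184.1 to 186.2 CPM in KO and 211.0 to 213.3 CPM in WT libraries. The defining T cell gene Cd3e stood at -5.063 log2 CPM in all 6 libraries, a floor value that 8492 genes shared. In the deposited log2 values, the sum of KO and WT of the same number was equal for all 3 numbers in each gene, to within 0.001. What is left per gene is its mean and 3 differences, so a KO library that is high has a WT partner that is equally low. Groups that do not overlap are thus the same observation as 3 differences of the same sign. A tight group likewise restates 3 similar differences. Differences below are KO minus WT on the log2 scale, over the 3 replicate numbers (pairs 1 to 3), with their SD. P-values and intervals from limma, the test used, draw mostly on the spread of all genes at a similar level. They need not follow that SD.

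No single member passed the test over all genes, and most lay slightly higher in KO. By limma, 0 of the 33 members with a mean of at least 1 CPM passed 5% FDR, where 0.266% of the 10133 genes tested did. At an unadjusted p under 0.05, 6 members were higher in KO and 0 lower, against 4.16% and 4.66% of all tested genes (8.82% in either direction). With 2 pairs only, 2 members reached that p when pair 1 was dropped, 1 when pair 2 was dropped and 6 when pair 3 was dropped, where 882, 400 and 1216 of the 10133 tested genes did. The counts of 2 and 1 of the 33 are smaller shares than those of all genes in the same fits. The 6 were the HIF targets Ndrg1, P4ha1 and Ankrd37 and the enzymes Aldoc, Aldoa and Pfkp. Of the 33, 29 had a mean difference above 0, as did 51.3% of all tested genes, and 4 (Hk1, Pfkm, Slc2a3 and Slc16a3) had one below 0, as did 48.6%. By pair, 26 members were above 0 in pair 1, 26 in pair 2 and 21 in pair 3, where 50.3%, 52.1% and 50.7% of all tested genes were. All KO libraries lay above all WT libraries for 12 members and below them for 1 (Hk1), against 15.2% and 12.5% of all tested genes. The genes of a pathway are not replicates of each other, and these counts carry no test. The plot of values by library shows how far apart the members' levels were and how narrow the gaps between the groups.

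**Figure D1:**
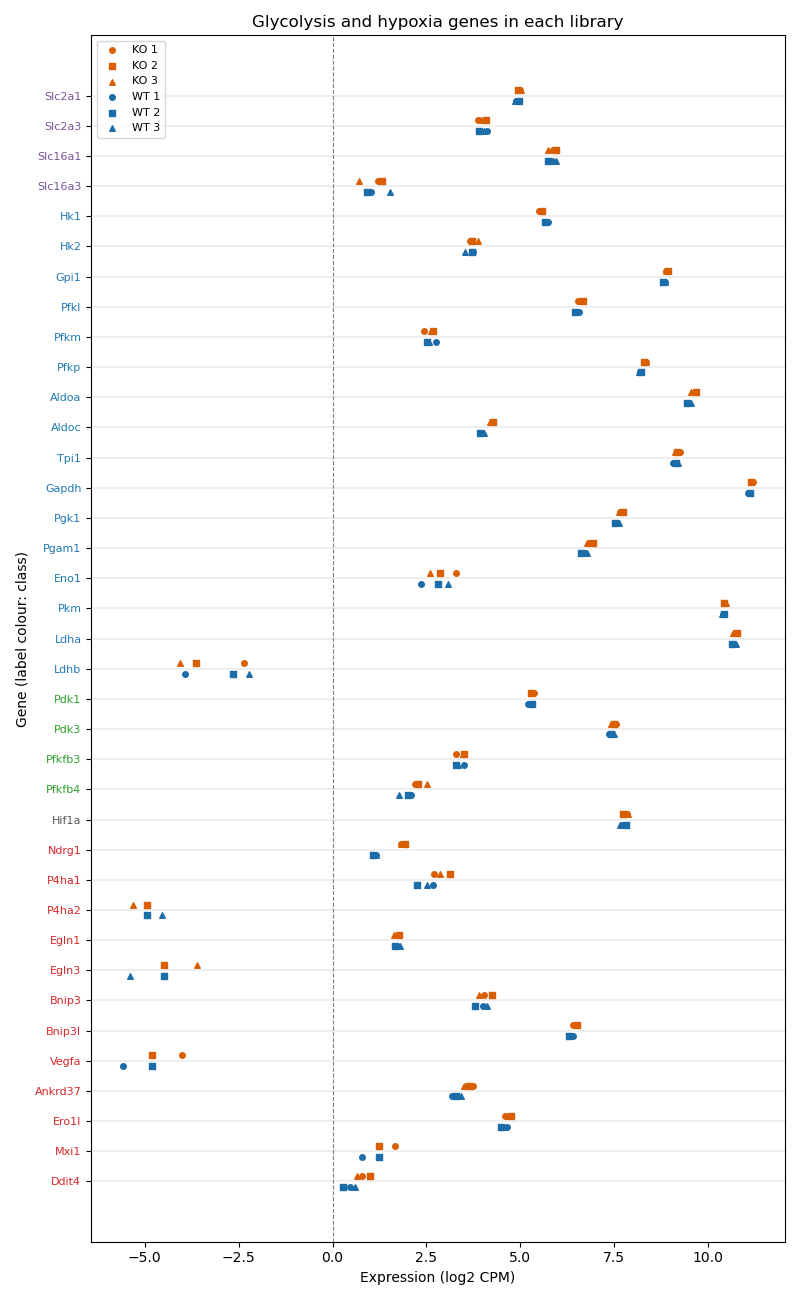
Expression of the 37 members in each library, in log2 CPM on the horizontal axis, with KO libraries in orange above WT libraries in blue; the dashed line marks 1 CPM. Levels ran from Gapdh, at 2132 CPM or more, to 4 genes below 1 CPM (Ldhb, P4ha2, Egln3 and Vegfa), and KO and WT points stood clearly apart only for Ndrg1 and a few others.

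The rule for this group sets the HIF targets outside glycolysis against the glycolytic enzymes. The 9 targets tested were all above 0, with a median difference of 0.30, and the 15 enzymes tested were above 0 in 13 cases, with a median of 0.090. The target median was the value of Mxi1, which differed in pair 1 alone, and the lowest target was Egln1 at 0.002. The median over all tested genes was 0.0037. This order did not hold in every pair. The median of the targets was 0.039, 0.33 and 0.070 in the 3 pairs, and that of the enzymes was 0.091, 0.128 and 0.014, so in pair 1 the enzymes stood higher. Leaving out pair 2 took the medians to 0.20 for the targets and 0.053 for the enzymes, and leaving out pair 3 to 0.45 and 0.10. Without pair 1 they were 0.20 and 0.11.

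**Figure D2:**
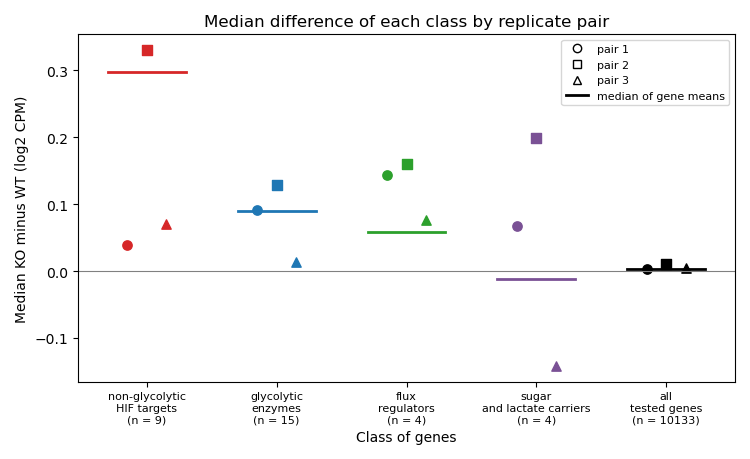
Median difference KO minus WT, in log2 CPM, of 4 classes of members and of all tested genes (Hif1a, a single gene, is left out), for the 3 replicate pairs (symbols) and for the gene means (lines). Pair 2 gave the highest median of the enzymes, carriers, flux regulators and HIF targets (0.33 for the HIF targets), while the medians of all tested genes stayed between 0.003 and 0.011.

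The classes also sat at different levels, and the scatter of a difference depends on level. Of the 9 targets 5 lay between 1 and 8 CPM, where the median size of a difference over all 2213 genes was 0.174. Of the 15 enzymes 10 lay above 64 CPM, where it was 0.0607 over 3329 genes. Within the low band all 5 targets were above 0, with a median of 0.37, where 48.5% of all genes were above 0. Within the high band all 10 enzymes were above 0, with a median of 0.083, where 50.9% of all genes were. Too few genes of both classes shared a band to set them side by side at equal level. The only band with 3 of each was 8 to 64 CPM, where the medians were 0.10 for the targets and 0.090 for the enzymes. With genes under 4 CPM left out, 5 targets remained, with a median of 0.14.

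**Figure D3:**
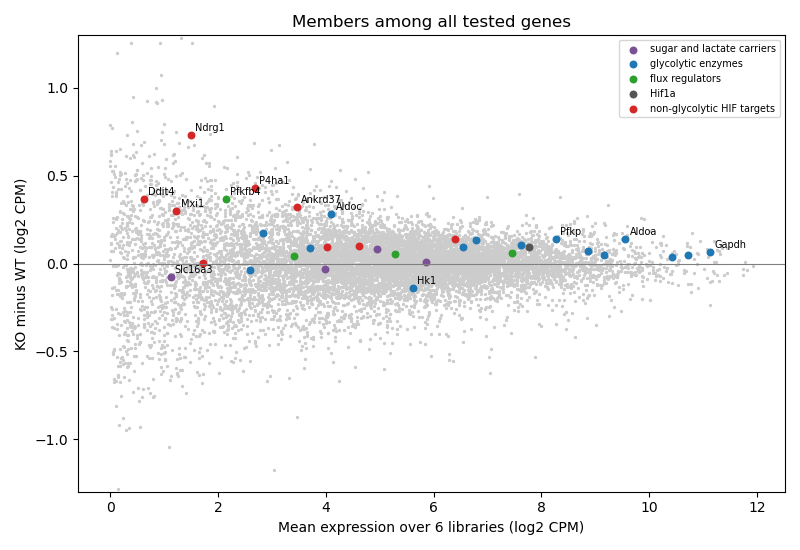
Mean difference KO minus WT against mean expression over the 6 libraries, both in log2 CPM, for all tested genes (grey) and the 33 tested members (colour by class). HIF targets (red) spread over the left and middle of the plot and enzymes (blue) lie mostly to the right, close to 0; 10 of the tested genes fall outside the plotted range of ±1.3.

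Pair 2 also stood apart in erythroid and platelet markers and in markers of RNA quality. The 7 erythroid and platelet markers in the files summed to 9.63 CPM in KO 2 and 1.87 CPM in WT 2, against 4.89 and 4.41 CPM in KO 1 and WT 1, and 4.69 and 3.59 CPM in KO 3 and WT 3. Over those 7 the range was 4.69 to 9.63 CPM in KO and 1.87 to 4.41 CPM in WT libraries, and the alpha globin genes Hba-a1 and Hba-a2 stood at the floor value in all 6. Nuclear and non-coding RNAs (7 genes, led by Malat1), looked at as a sign of RNA quality, summed to 386.4 CPM in KO 2 and 755.0 CPM in WT 2. In the other pairs that sum was 485.1 CPM in KO 1 and 587.0 CPM in WT 1, and 602.0 CPM in KO 3 and 471.0 CPM in WT 3. The 6 naive or follicular B cell markers ranged from 703.8 to 771.8 CPM in KO and from 678.4 to 740.7 CPM in WT libraries, with the top of the KO range in KO 2. The myeloid and T cell lists differed least in pair 2. Myeloid markers summed to 2.92 CPM in KO 2 and 3.11 CPM in WT 2. They summed to 2.73 and 3.87 CPM in KO 1 and WT 1, and to 1.76 and 5.27 CPM in KO 3 and WT 3. For T cell markers the log2 ratio of the KO to the WT sum was 0.321, 0.133 and 0.237 in pairs 1 to 3. The part of these markers in the differences of the members was not tested. By transcript length, pairs 1 and 3 stood out instead. Over 10082 genes the Spearman correlation of difference with length was -0.255 in pair 1, -0.0982 in pair 2 and 0.239 in pair 3.

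Ndrg1, a cytosolic protein strongly induced by hypoxia, showed the largest difference of all tested members. It lay at 3.57, 3.81 and 3.57 CPM in KO libraries and at 2.25, 2.10 and 2.24 CPM in WT libraries. Every pair gave a similar gap (0.665, 0.859 and 0.671), and the distance between the groups and their tightness restate this. The mean difference was 0.73 ± 0.11 (SD, n = 3 pairs), a fold of 1.66, with a limma 95% interval of 0.24 to 1.23 and an adjusted p of 0.256. By size of difference Ndrg1 was number 30 of all tested genes from the KO end, and by p number 161. Without the replicate block its limma adjusted p was 0.0352, in a fit that takes the 6 libraries as independent. The gene lies on chromosome 15 from 66929318 to 66969640 (GRCm38). Basp1, the gene targeted in the KO group, lies on the same chromosome, from 25363277 to 25413764. Whether this shared chromosome bears on the difference was not tested.

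P4ha1, the catalytic subunit of collagen prolyl hydroxylase, lay at 6.52, 8.81 and 7.32 CPM in KO against 6.38, 4.72 and 5.69 CPM in WT libraries. The groups did not overlap, but pair 2 supplied a gap of 0.899, against 0.031 for pair 1 and 0.363 for pair 3. The mean difference was 0.43 ± 0.44 (SD, n = 3 pairs; limma adjusted p = 0.423; 95% interval 0.063 to 0.80), and 0.20 without pair 2. P4ha2, its sister subunit, was listed at or below 0.0328 CPM in KO and 0.0432 CPM in WT libraries and was not tested.

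Ankrd37, a small ankyrin-repeat protein and HIF target, lay at 13.4, 12.4 and 11.3 CPM in KO and at 9.10, 9.86 and 10.8 CPM in WT libraries. The groups stood apart, by most in pair 1 (0.562) and least in pair 3 (0.069). Its mean difference was 0.32 ± 0.25 (SD, n = 3 pairs; limma adjusted p = 0.504; 95% interval 0.022 to 0.62). Ddit4 (REDD1), which restrains the mTORC1 kinase under stress, lay at 1.73, 1.98 and 1.59 CPM in KO and at 1.38, 1.21 and 1.51 CPM in WT libraries. All KO libraries were above all WT ones, yet at this low level the mean of 0.37 ± 0.33 had a limma 95% interval of -0.26 to 1.00. Mxi1, an antagonist of MYC at E-boxes, differed in pair 1 alone, with 3.20 CPM in KO 1 and 1.72 CPM in WT 1 and the same value of 2.35 CPM in the other 4 libraries.

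The mitophagy receptors Bnip3 and Bnip3l gave smaller gaps. Bnip3l lay at 84.8, 90.8 and 90.9 CPM in KO and at 84.3, 78.8 and 78.7 CPM in WT libraries, a mean difference of 0.14 ± 0.11 (SD, n = 3 pairs; limma adjusted p = 0.692). Its groups did not overlap, although KO 1 and WT 1 were almost equal. Bnip3 ranged from 15.1 to 19.0 CPM in KO and from 13.9 to 17.5 CPM in WT libraries, and its sign turned to -0.086 without pair 2. Ero1l (now Ero1a), the oxidase of disulphide formation in the endoplasmic reticulum, ranged from 24.0 to 27.1 CPM in KO and from 22.3 to 25.2 CPM in WT libraries, a difference of 0.10 ± 0.18. Egln1, the main HIF prolyl hydroxylase, had almost equal group means, 3.30 CPM in KO and 3.29 CPM in WT, with a limma 95% interval of -0.46 to 0.47 around that mean difference. Egln3 and Vegfa, both classical targets, were near the floor value (at most 0.0815 CPM in KO and 0.0441 CPM in WT libraries), so no fold is given for them.

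**Figure D4:**
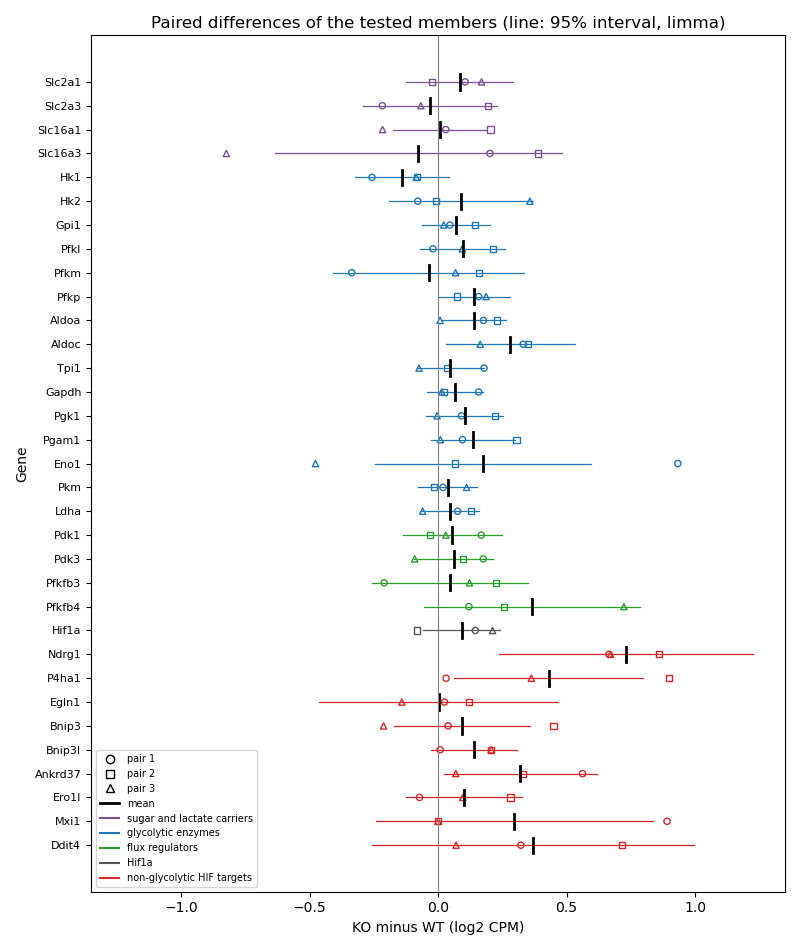
Difference KO minus WT in log2 CPM for the 33 tested members, with a symbol for each replicate pair, a black bar for the mean and a coloured line for the limma 95% interval. Ndrg1 is the member whose 3 pairs lie close together far from 0 (0.665 to 0.859), whereas the pairs of P4ha1, Mxi1 and Eno1 lie far apart from each other.

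HIF acts through its core motif, so promoter windows of members from both classes are shown: P4ha1 and Ankrd37 as targets with higher KO values, Aldoc as the enzyme with the largest difference, and Ldha and Pgk1 as classical HIF-driven enzymes, with differences of 0.05 and 0.10. The sequences are RefSeq's (GRCm38.p6), from 250 bases before to 50 after the most upstream listed start (the first window), 5′ to 3′ on the gene's strand. Capitals mark ACGTG or GCGTG on either strand, so that CACGT and CACGC are the same motifs read on the other strand, and CACGTG, an E-box that MYC also binds, counts once on each strand. The windows are chr10:59323046-59323345 (plus strand), chr8:45999801-46000100 (minus), chr11:78322823-78323122 (plus), chr7:46845554-46845853 (plus) and chrX:106186850-106187149 (plus).
P4ha1: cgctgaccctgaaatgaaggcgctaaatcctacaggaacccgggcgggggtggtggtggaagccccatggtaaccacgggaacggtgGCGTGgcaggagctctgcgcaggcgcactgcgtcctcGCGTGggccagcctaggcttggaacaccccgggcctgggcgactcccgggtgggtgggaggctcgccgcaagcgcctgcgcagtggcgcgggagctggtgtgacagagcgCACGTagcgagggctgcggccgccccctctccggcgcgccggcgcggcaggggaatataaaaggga
Ankrd37: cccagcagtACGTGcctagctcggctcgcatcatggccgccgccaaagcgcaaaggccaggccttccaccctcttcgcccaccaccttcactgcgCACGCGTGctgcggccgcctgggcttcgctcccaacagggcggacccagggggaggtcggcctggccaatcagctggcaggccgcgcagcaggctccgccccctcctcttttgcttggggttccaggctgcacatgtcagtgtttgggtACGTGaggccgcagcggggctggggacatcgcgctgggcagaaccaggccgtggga
Aldoc: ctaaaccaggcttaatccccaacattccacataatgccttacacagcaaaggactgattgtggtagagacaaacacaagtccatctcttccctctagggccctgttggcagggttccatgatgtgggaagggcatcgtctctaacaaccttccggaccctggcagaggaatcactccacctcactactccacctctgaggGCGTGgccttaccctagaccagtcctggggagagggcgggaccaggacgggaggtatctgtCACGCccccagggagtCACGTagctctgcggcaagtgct
Ldha: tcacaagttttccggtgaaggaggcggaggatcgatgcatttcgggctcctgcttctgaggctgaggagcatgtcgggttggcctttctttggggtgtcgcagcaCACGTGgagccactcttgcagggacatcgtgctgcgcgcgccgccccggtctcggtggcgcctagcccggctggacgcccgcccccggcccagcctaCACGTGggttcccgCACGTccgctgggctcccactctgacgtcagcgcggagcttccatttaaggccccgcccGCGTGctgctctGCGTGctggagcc
Pgk1: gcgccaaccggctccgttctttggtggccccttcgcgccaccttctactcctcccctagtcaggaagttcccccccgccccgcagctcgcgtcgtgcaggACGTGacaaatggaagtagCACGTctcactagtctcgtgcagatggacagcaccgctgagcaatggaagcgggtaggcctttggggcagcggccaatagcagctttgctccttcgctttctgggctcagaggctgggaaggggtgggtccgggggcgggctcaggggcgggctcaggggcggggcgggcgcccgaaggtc

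In these windows P4ha1 had 3 matches, Ankrd37 had 4, Aldoc had 3, Ldha had 7 and Pgk1 had 2. Windows were found for 34 of the 37 members (not for Ndrg1, Bnip3l and Slc2a3). A match stood in 27 of the 34 (79.4%) and in 43.8% of the first windows of all 27025 genes in the RefSeq table. Among the enzymes it was 11 of 16 and among the HIF targets 8 of 10. The share over all genes was not limited to genes expressed here or matched for GC content, and enrichment was not tested. The windows of Tpi1, Gpi1, Hk1, Pkm, Aldoa, Mxi1 and Vegfa held none at the most upstream listed start. RefSeq lists other starts for 5 of these 7 genes (all but Tpi1 and Gpi1), and a later window of each of the 5 held at least 1 match. Ldha, with the most matches, differed by 0.05 and Ankrd37, with 4, by 0.32, and no relation between matches and differences was tested.

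Glucose enters B cells through the facilitative transporters GLUT1 and GLUT3, and neither transcript differed beyond its spread. Slc2a1 (GLUT1) lay at 32.1, 30.7 and 32.8 CPM in KO and at 29.8, 31.2 and 29.2 CPM in WT libraries, and the groups overlapped. The difference was 0.08 ± 0.10 (SD, n = 3 pairs; limma adjusted p = 0.894; 95% interval -0.12 to 0.29). Slc2a3 (GLUT3) ranged from 14.8 to 17.0 CPM in KO and from 14.9 to 17.2 CPM in WT libraries. Per kilobase of the longest coding transcript, Slc2a1 was the more abundant, with 9.76 CPM per kb in KO and 9.21 in WT, against 3.98 in KO and 4.07 in WT for Slc2a3. For lactate, the carrier MCT1 (Slc16a1) had group means of 58.0 CPM in KO and 57.8 CPM in WT, and its limma 95% interval ran from -0.17 to 0.19. The export carrier MCT4 (Slc16a3), a HIF target, lay at 2.33, 2.49 and 1.64 CPM in KO against 2.03, 1.90 and 2.90 CPM in WT libraries. Pairs 1 and 2 went one way and pair 3 the other, so the mean of -0.08 ± 0.65 says little. Over the 4 carriers 2 were above 0.

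The upper part of the pathway, from glucose to triose phosphates, spends ATP and holds the committed steps. Hexokinase, which traps glucose as glucose 6-phosphate, was present mainly as Hk1: per kilobase it had 11.0 CPM in KO and 12.1 in WT, against 2.45 in KO and 2.30 in WT for Hk2. Hk1 was the only member lower in all 3 KO libraries, at 45.1, 47.9 and 47.9 CPM, against 53.9, 50.7 and 50.8 CPM in WT libraries. The difference of -0.14 ± 0.10 (SD, n = 3 pairs) did not pass (limma adjusted p = 0.732; 95% interval -0.32 to 0.04). Hk2, the inducible form and HIF target, overlapped between groups (12.7 to 14.8 CPM in KO, 11.6 to 13.5 CPM in WT), and its mean of 0.09 turned to -0.044 without pair 3. Gpi1, which isomerises glucose 6-phosphate, lay at 475.1, 491.5 and 471.1 CPM in KO and at 460.2, 445.1 and 464.0 CPM in WT libraries. These groups were apart by a narrow margin, a difference of 0.07 ± 0.06 (limma adjusted p = 0.837).

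Phosphofructokinase, the committed step, was mostly the platelet-type gene Pfkp, then the liver-type Pfkl and the muscle-type Pfkm. Per kilobase they had 77.9, 26.1 and 2.08 CPM in KO and 70.7, 24.4 and 2.13 in WT. Pfkp lay at 324.9, 315.8 and 328.3 CPM in KO and at 291.2, 299.8 and 288.4 CPM in WT libraries. All KO values were above all WT values in a tight set, with a difference of 0.14 ± 0.06 (SD, n = 3 pairs; unadjusted p = 0.0493 and adjusted p = 0.561 by limma). Pfkl (93.4 to 101.4 CPM in KO, 87.4 to 94.7 CPM in WT) and Pfkm (5.39 to 6.40 CPM in KO, 5.73 to 6.80 CPM in WT) overlapped between groups.

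Aldolase splits fructose 1,6-bisphosphate, and both of its genes stood higher in KO. Aldoc, the form best known from brain, lay at 19.3, 19.4 and 18.2 CPM in KO and at 15.3, 15.2 and 16.3 CPM in WT libraries. The groups were clearly apart, with gaps of 0.331, 0.350 and 0.164 in the 3 pairs. Its difference of 0.28 ± 0.10 (SD, n = 3 pairs) was the largest of the enzymes (limma adjusted p = 0.473; 95% interval 0.029 to 0.53). Aldoa, the main form, lay at 801.7, 816.3 and 756.4 CPM in KO and at 709.2, 696.5 and 752.2 CPM in WT libraries. The groups did not overlap but nearly met in pair 3, where the gap was 0.008, and the difference was 0.14 ± 0.12 (limma adjusted p = 0.479; 95% interval 0.012 to 0.26). Per kilobase Aldoa reached 510.7 CPM in KO and 464.1 in WT, against 6.81 in KO and 5.60 in WT for Aldoc, so the larger log2 difference belonged to the minor form. Tpi1, which interconverts the triose phosphates, ranged from 558.7 to 609.7 CPM in KO and from 538.6 to 588.1 CPM in WT libraries and overlapped.

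The lower part of the pathway yields ATP and pyruvate, and its transcripts were among the most abundant of the group. Gapdh lay at 2379, 2271 and 2263 CPM in KO and at 2132, 2233 and 2241 CPM in WT libraries, groups that did not overlap, for a difference of 0.07 ± 0.08 (SD, n = 3 pairs; limma adjusted p = 0.815). Pgam1, phosphoglycerate mutase, lay at 114.0, 122.6 and 110.7 CPM in KO and at 106.7, 99.3 and 110.0 CPM in WT libraries, a difference of 0.14 ± 0.15 that pair 2 led with 0.305. Pgk1, phosphoglycerate kinase, ranged from 197.5 to 213.6 CPM in KO and from 183.2 to 198.1 CPM in WT libraries (0.10 ± 0.11). Pkm, pyruvate kinase, ranged from 1368 to 1430 CPM in KO and from 1324 to 1384 CPM in WT libraries (0.04 ± 0.07). The values do not separate the Pkm splice forms. Ldha, which makes lactate, ranged from 1643 to 1753 CPM in KO and from 1605 to 1713 CPM in WT libraries, a difference of 0.05 ± 0.10 with a limma 95% interval of -0.065 to 0.16. Ldhb, the other subunit, stayed at or below 0.195 CPM in KO and 0.213 CPM in WT libraries, so Ldha was the form measured in both groups.

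Several of these genes have near-identical copies in the mouse genome, and their values are uncertain to that extent. Of all 75-base stretches of the longest coding transcript, 80.3% of Gapdh, 67.5% of Pgk1, 65.4% of Eno1 and 40.6% of Pgam1 also occurred in another gene's transcripts (GENCODE M21). Eno1, enolase, was listed at 9.84, 7.29 and 6.04 CPM in KO and at 5.16, 6.96 and 8.40 CPM in WT libraries, far below its neighbours in the pathway. Its pairs disagreed (0.933, 0.065 and -0.477), and its closest copy Eno1b (listed under the older name Gm5506) lay at 3.99, 3.84 and 2.87 CPM in KO and at 2.76, 2.87 and 3.84 CPM in WT libraries. How reads that match several genes were counted is not stated. Without these 4 genes the median of the 11 other enzymes was 0.070, with 9 above 0.

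The flux regulators set how fast glucose is used and whether pyruvate enters mitochondria. Pfkfb4, which makes the activator fructose 2,6-bisphosphate, lay at 4.61, 4.83 and 5.68 CPM in KO and at 4.24, 4.04 and 3.44 CPM in WT libraries. The groups were apart, mostly through pair 3 (0.723), with a difference of 0.37 ± 0.32 (SD, n = 3 pairs; limma adjusted p = 0.665; 95% interval -0.053 to 0.79), and 0.19 without pair 3. Its relative Pfkfb3 overlapped (9.84 to 11.4 CPM in KO, 9.79 to 11.4 CPM in WT). The pyruvate dehydrogenase kinases, which switch that enzyme off, were Pdk3 and Pdk1. Pdk3 lay at 187.7, 182.5 and 171.0 CPM in KO and at 166.1, 170.8 and 182.2 CPM in WT libraries, and Pdk1 ranged from 38.7 to 41.5 CPM in KO and from 36.9 to 39.6 CPM in WT libraries. Both overlapped, with differences of 0.06 ± 0.14 for Pdk3 (limma adjusted p = 0.894) and 0.06 ± 0.10 for Pdk1. Per kilobase Pdk3 was the more abundant, with 85.2 CPM in KO and 81.7 in WT, against 7.70 in KO and 7.41 in WT for Pdk1.

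Hif1a itself lay at 231.0, 213.5 and 236.4 CPM in KO and at 208.9, 226.0 and 204.1 CPM in WT libraries. KO was higher in pairs 1 and 3 and lower in pair 2, the pair in which the HIF targets had their highest median. The difference was 0.09 ± 0.15 (SD, n = 3 pairs; limma adjusted p = 0.808; 95% interval -0.057 to 0.24). Of 13 other genes of HIF control, 11 were tested, 9 of them above 0, and none passed by limma at 5% FDR or had an unadjusted p under 0.05. Hif1an, the asparaginyl hydroxylase that blocks HIF coactivators, lay at 46.8, 57.4 and 53.2 CPM in KO against 51.8, 42.2 and 45.6 CPM in WT libraries (0.17 ± 0.30; limma adjusted p = 0.648). Tceb2 (now Elob), a subunit of the VHL ligase, lay at 356.3, 353.9 and 338.0 CPM in KO against 315.4, 317.6 and 332.5 CPM in WT libraries (0.12 ± 0.08; limma adjusted p = 0.678). Epas1, the HIF-2 alpha gene, averaged 0.251 CPM in KO and 0.325 CPM in WT and was not tested.

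Further HIF targets outside the group had a smaller median difference. Of 26 such genes 14 were tested, 10 were above 0, and the median difference was 0.048, against 0.30 for the 9 tested targets of the group. The 2 lists differ in level, since 3 of these 14 but 5 of those 9 lay below 8 CPM, where differences scatter more. By limma 0 of them passed 5% FDR and 1 had an unadjusted p under 0.05. That was Bhlhe40, a circadian and stress repressor that light zone cells also express, at 11.5, 13.1 and 8.60 CPM in KO against 7.47, 6.58 and 10.0 CPM in WT libraries. Pair 3 went against the others, and the difference was 0.47 ± 0.62 (SD, n = 3 pairs; limma adjusted p = 0.366). Hmox1, heme oxygenase, was steadier, at 7.14, 6.89 and 7.19 CPM in KO against 5.94, 6.16 and 5.91 CPM in WT libraries (0.24 ± 0.07; limma adjusted p = 0.789). Car9, one of the most HIF-dependent genes known, averaged 0.439 CPM in KO and 0.187 CPM in WT, below the limit for testing. Others of the list, chosen after their values were seen, lay lower in KO. Cited2, a feedback inhibitor of HIF, lay at 71.1, 57.6 and 50.9 CPM in KO against 63.3, 78.3 and 88.5 CPM in WT libraries (-0.36 ± 0.49; limma adjusted p = 0.799). Kdm3a, a histone demethylase, was lower in all 3 KO libraries, at 32.3, 34.5 and 35.0 CPM against 38.0, 35.5 and 35.1 CPM in WT libraries (-0.09 ± 0.12; limma adjusted p = 0.868). Plod2, a collagen lysyl hydroxylase, averaged 0.260 CPM in KO and 0.502 CPM in WT and was not tested.

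The other branches of glucose use had medians below that of the enzymes. For the entry of pyruvate into mitochondria, 10 of 12 genes were tested, 6 were above 0, the median was 0.035, and none passed 5% FDR by limma, with 2 at an unadjusted p under 0.05. These were Pdp2, a phosphatase that switches pyruvate dehydrogenase on, and Dlat, a core subunit of it. Pdp2 lay at 15.5, 19.0 and 15.2 CPM in KO against 12.9, 10.5 and 13.2 CPM in WT libraries, groups that stood apart (0.44 ± 0.36; limma adjusted p = 0.204). Dlat lay at 67.1, 74.5 and 70.0 CPM in KO against 64.8, 58.4 and 62.2 CPM in WT libraries (0.19 ± 0.15; limma adjusted p = 0.479). In the pentose phosphate pathway all 9 genes were tested, 6 were above 0, the median was 0.0093, and none passed or had an unadjusted p under 0.05 by limma. G6pdx, its first enzyme, lay at 74.9, 76.7 and 77.2 CPM in KO against 70.4, 68.7 and 68.3 CPM in WT libraries (0.14 ± 0.05; limma adjusted p = 0.693), while Rpe, ribulose phosphate epimerase, overlapped between groups (limma adjusted p = 0.771).

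Glycolytic and related genes left out of the group, isoforms of other tissues among them, were tested in 13 of 26 cases. Of these 7 were above 0, the median was 0.056, and by limma none passed 5% FDR and 1 had an unadjusted p under 0.05. That was Pgam2, the muscle-type mutase, which went against Pgam1. It lay at 1.83, 1.49 and 1.5 CPM in KO and at 2.14, 2.63 and 2.62 CPM in WT libraries, lower in all 3 KO libraries (-0.61 ± 0.34; SD, n = 3 pairs; limma adjusted p = 0.499). Bpgm, which diverts a glycolytic intermediate to 2,3-bisphosphoglycerate, was also lower in each KO library, at 78.3, 73.3 and 71.9 CPM against 78.4, 83.8 and 85.4 CPM in WT libraries (-0.15 ± 0.13; limma adjusted p = 0.665). The 6 plasma cell markers were mixed. They summed to between 2150 and 2322 CPM in KO and between 2282 and 2479 CPM in WT libraries, mostly through Igj, the immunoglobulin J chain, at 1560 to 1783 CPM in KO and 1719 to 1966 CPM in WT libraries. Irf4, a factor that drives plasma cell fate, lay at 16.7, 16.6 and 14.3 CPM in KO against 10.3, 10.4 and 12.1 CPM in WT libraries (0.54 ± 0.26; limma adjusted p = 0.0636). Prdm1, the master regulator of that fate, lay at 2.75, 2.03 and 1.92 CPM in KO against 0.930, 1.26 and 1.33 CPM in WT libraries (0.93 ± 0.56; limma adjusted p = 0.256). Sdc1, the surface marker CD138, averaged 0.947 CPM in KO and 0.658 CPM in WT and was also higher in each KO library. Xbp1 and Slpi overlapped between groups. The part of such cells in the members' values was not tested, and in sorted bulk cells a changed number of cells of a type and a changed level per cell cannot be told apart.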

How the data were processed

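Messenger RNA of 3 KO and 3 WT libraries was sequenced with an Illumina TruSeq mRNA kit, per the labels' protocols. The submitters' processing notes name limma, featureCounts (Subread 2.0.1), STAR 2.6.1a, the trimmer Trim Galore 0.6.5 and FastQC 0.11.7 for build mm10, without settings, order or strand. The values the authors deposited are log2 CPM: linear values sum to between 997617 and 1000513 per library. Read depth cannot be had from them.

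The members, lists and tests were chosen with earlier results of these data known. The comparison of KO and WT used limma 3.58.1 under R 4.3.3 (genotype plus replicate number, variance trend, robust moderation, two-sided, Benjamini-Hochberg over all 10133 genes with a geometric mean of at least 1 CPM that were not equal in all libraries). Replicate number entered as a block, since the deposited values hold no difference between numbers, which leaves 2 residual degrees of freedom per gene. The labels do not say what a number stands for. With 3 pairs the smallest exact two-sided p is 0.25. CPM of a group are geometric means. Values in every library are given for members at the top of their class by p or by size of difference, and, chosen after their values were seen, for others whose groups stood apart. Positions come from GENCODE M21 (GRCm38) and promoters from RefSeq. One gene of the germinal centre marker list is not reported here, nor is that list's sum. The other cell type and RNA quality lists were the plasma, naive or follicular B cell, T cell, myeloid, erythroid and platelet, and nuclear RNA lists.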

Additional observations from a re-analysis of the deposited data

How the results depend on the processing

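The count of genes called over all genes, 27, depended on the fit. It was 142 without the replicate block, 0 with no variance trend (limma; 640 of the 10133 genes at an unadjusted p under 0.05), 12 with non-robust moderation, 95 with no filter on low values, 5 after removal of length and GC trends (replicate block kept), and 11 to 136 with 1 replicate pair left out (136 when pair 1 was dropped, 11 for pair 2, 99 for pair 3). The members called stayed at 0 under each alternative except the fit without the replicate block, which called 1, Ndrg1; that block changed no other call of a member.

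Of 358 values of single members under the 11 alternatives, 340 kept direction and side of the threshold, 14 turned their sign, 1 passed the threshold, and 3 were exactly 0 (Mxi1 and Pdk1 without pair 1, and Slc16a1 with centred pairs). Egln1 was at -0.004 with pairs centred on their median, and Slc16a1 at -0.007 with the length and GC trend removed. With 1 pair left out the lowest and highest values were -0.134 and 0.113 for Pfkm, -0.019 and 0.108 for Tpi1, -0.206 and 0.499 for Eno1, -0.142 and 0.063 for Slc2a3, -0.093 and 0.117 for Slc16a1, -0.058 and 0.073 for Egln1, -0.044 and 0.173 for Pfkfb3, -0.086 and 0.244 for Bnip3, -0.044 and 0.174 for Hk2 and -0.311 and 0.296 for Slc16a3. The cause was not tested.

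The median of the glycolytic enzymes ranged from 0.053 to 0.11 and that of the HIF targets from 0.20 to 0.45 with 1 pair left out. With a pseudocount of 1 CPM the medians were 0.083 and 0.21, and with the length and GC trend removed 0.10 and 0.30. Chosen after seeing the data were the target median without Ndrg1, 0.22, and the enzyme median without the 4 genes with near-identical copies, 0.070. Myeloid markers summed to 1.76 to 2.92 CPM in KO and 3.11 to 5.27 CPM in WT libraries. T cell markers summed to 220.4 to 235.4 CPM in KO and 188.5 to 201.0 CPM in WT libraries, nearly all from Lck, which B cells also express.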
